A study of Mus musculus with 6 samples.

Results

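The Egr, Nr4a and Ier genes of white adipose tissue (WAT) are 9 immediate early genes of the 21456 genes in the table: the zinc finger transcription factors Egr1, Egr2 and Egr3, the nuclear receptors Nr4a1, Nr4a2 and Nr4a3, and the immediate early response genes Ier2, Ier3 and Ier5. They were taken by gene symbol, and they were selected on measured values, since results of the same comparison of Ntsr2 AKO with control mice were known when the genes were named. Their differences between the genotypes are therefore a description. Calls that a fit across all genes gave them are listed once, as counts beside the share of all genes, and support nothing. WATs were sequenced from 3 control mice and 3 Ntsr2 AKO mice, for which the study's methods describe Ntsr2 flox/flox animals crossed with Adipoq-Cre animals, and the controls as Ntsr2 flox/flox. Both groups thus carry the floxed Ntsr2 alleles, in a neurotensin receptor gene, and both were fed a chow diet. Adipoq drives Cre in white and in brown adipocytes, while the other cells of the tissue keep the gene. The fat depot, age and sex of these 6 mice are not given in the sources used here, and mice are named here by the replicate numbers 3, 4 and 5 in each group.

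Immediate early genes are transcribed within minutes of a signal at the cell surface, without new protein synthesis. The ERK cascade acts on their promoters through SRF and ELK proteins at CArG boxes, and cAMP acts through CREB at cAMP response elements (CREs). EGR proteins bind GC-rich DNA and NR4A proteins bind the NBRE as orphan nuclear receptors, and in adipocytes Nr4a genes are known to respond to beta-adrenergic signals.

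The read totals recovered from the normalized counts were 60405373 to 66098226 in control mice and 54085088 to 56268725 in Ntsr2 AKO mice, so the groups did not overlap in depth. Ntsr2, the targeted gene, had normalized counts of 83.8, 64.0 and 152.5 in control mice 3, 4 and 5 and of 3.10, 8.29 and 0 in Ntsr2 AKO mice 3, 4 and 5. The defining adipocyte transcript Adipoq was abundant in every mouse, and the summed level of 6 adipocyte markers overlapped between the groups (1051769 to 1551573 in control and 1346768 to 1558884 in Ntsr2 AKO mice). The libraries differed in other cells. Transcripts of 7 skeletal muscle markers summed to 2433545 in control 5, 166096 in Ntsr2 AKO 5 and 74504 in Ntsr2 AKO 4, against 391.0 to 1448 in the other 3 mice. In Ntsr2 AKO 3 the muscle enzyme gene Ckm was at 0. Control 3 held the most transcripts of 5 T cell markers (974 against at most 423 in the others) and of 4 B cell markers (593 against at most 171). In bulk tissue, fewer cells of a type and less RNA per cell cannot be told apart.

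Egr1 was lower in Ntsr2 AKO mice and varied little within each group. Its normalized counts were 2411, 2020.0 and 2627 in control mice 3, 4 and 5, against 513, 407 and 507 in those lacking Ntsr2 in adipocytes. The lowest control mouse was 3.94-fold above the highest Ntsr2 AKO mouse, so the groups did not overlap. The group means were 2353 ± 308 and 476 ± 59.4 (SD, n = 3 mice each), a 4.95-fold difference and -2.30 (SE 0.16) on the log2(normalized count + 1) scale. Only 91 of the 16157 genes tested (minimum mean of 10 normalized counts) had a lower log2 difference. Egr1 encodes the best studied factor of the EGR family, at chr18:34859823-34864984 on the plus strand of GRCm38.

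Egr2, a relative of Egr1 known from myelination and adipocyte differentiation, was also lower, but Ntsr2 AKO mice differed among themselves. Control mice 3, 4 and 5 had 352, 448 and 452 normalized counts, and Ntsr2 AKO mice 102, 59.1 and 280.3. Ntsr2 AKO 5 stood 1.26-fold under the lowest control, and the other two were far lower. The highest and lowest Ntsr2 AKO mice were 4.74-fold apart, against 1.28-fold in the controls. The log2 difference was -1.79 (SE 0.54), with means of 417 ± 56.2 and 147 ± 117 (SD, n = 3 each).

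Egr3, a factor induced by antigen receptors in lymphocytes, was scarce. Its values were 87.4, 17.5 and 18.2 in control mice and 42.3, 17.6 and 16.2 in Ntsr2 AKO mice. The groups overlapped, with mouse 3 of each group above its 2 companions. The log2 difference was -0.39 (SE 0.77), and it was 0.35 without control 3, the mouse with the most lymphocyte transcripts. The part of those cells in the Egr3 value was not tested. With only 16 to 95 reads per mouse, counting error adds to the spread between mice.

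**Figure D1:**
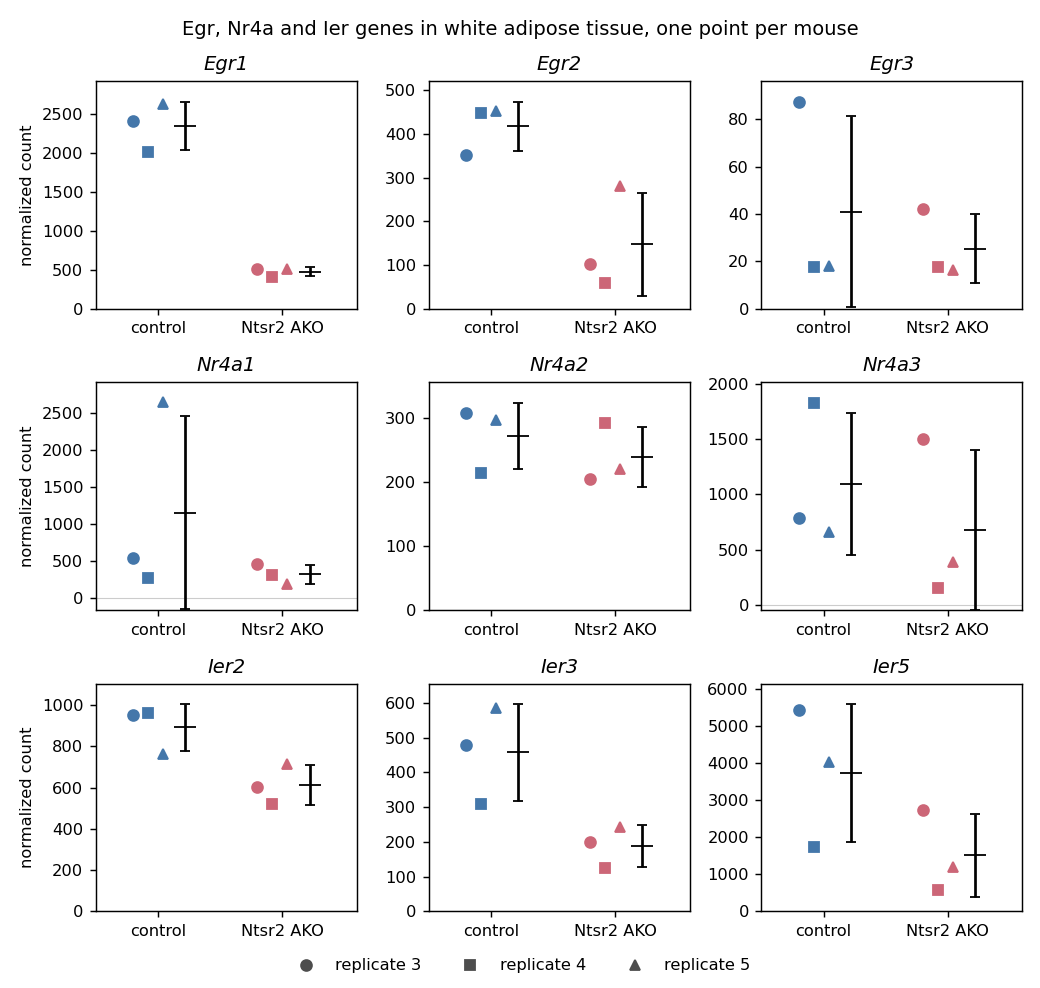
Normalized counts (linear axis that includes 0) of the Egr, Nr4a and Ier genes, with a point for each mouse (marker shape, replicate number) and mean ± SD (bars, n = 3 mice per group). Egr1, Egr2, Ier2 and Ier3 show no overlap between control and Ntsr2 AKO mice, whereas the high values of Nr4a1 (control 5, 2647) and Nr4a3 (control 4, 1832, and Ntsr2 AKO 3, 1499) come from single mice.

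The 3 Nr4a genes had no common pattern, as the plot of normalized counts by mouse shows. Nr4a1 (Nur77), an orphan receptor induced by many stimuli, had 535, 269 and 2647 normalized counts in control mice 3, 4 and 5, and 451, 300 and 189 in Ntsr2 AKO mice. Control 5 was far above every other mouse, and control 4 was below 2 of the Ntsr2 AKO mice. The log2 difference was -1.30 (SE 0.81), and it was -0.36 without control 5 and -2.01 without control 4. Control 5 was also the mouse with the most skeletal muscle transcripts, and the part of muscle tissue in its Nr4a1 value was not tested. With the summed muscle markers as a covariate the difference was -1.52. In 6 mice that fit cannot tell muscle from other traits of control 5.

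Nr4a2 (Nurr1), known for its role in dopamine neurons, was the steadiest of the family. It had 307, 214 and 296 normalized counts in control mice and 204, 292 and 221 in Ntsr2 AKO mice. Each group held values near the top and near the bottom of the common range. The means were 272 ± 51.3 and 239 ± 46.8 (SD, n = 3 each), with a log2 difference of -0.19 (SE 0.25).

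Nr4a3 (NOR-1), which responds to beta-adrenergic signals in muscle and fat, varied most within the groups. Its normalized counts were 786, 1832 and 659 in control mice and 1499, 149 and 385 in Ntsr2 AKO mice. Ntsr2 AKO 3 exceeded 2 control mice, and Ntsr2 AKO 4 lay far below it, at the bottom of all mice. The log2 difference of -1.15 (SE 0.83) became -0.37 without Ntsr2 AKO 4 and -2.03 without Ntsr2 AKO 3.

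Of the Ier genes, Ier2 and Ier3 separated the groups and Ier5 did not. Ier2, a nuclear protein gene induced by growth factors, had 953, 960.5 and 762 normalized counts in control mice and 603, 520.3 and 712 in Ntsr2 AKO mice. Control 5 and Ntsr2 AKO 5 were only 1.07-fold apart, and quantile normalization removed this gap. The log2 difference of Ier2 was -0.55 (SE 0.18).

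Ier3 (IEX-1), a stress-induced regulator of cell survival, had 478, 309 and 585 normalized counts in control mice and 198, 124 and 242 in Ntsr2 AKO mice. All Ntsr2 AKO mice lay below all controls, by at least 1.28-fold. The means were 457 ± 139 and 188 ± 59.4 (SD, n = 3 each), and the log2 difference was -1.28 (SE 0.34).

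Ier5, a regulator of the heat shock factor HSF1, had 5422, 1748 and 4030.0 normalized counts in control mice and 2742, 579 and 1196 in Ntsr2 AKO mice. Control 4 lay below Ntsr2 AKO 3, and the groups overlapped there. The log2 difference was -1.44 (SE 0.63), -0.89 without Ntsr2 AKO 4 and -2.01 without Ntsr2 AKO 3.

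All 9 genes had a lower mean in Ntsr2 AKO mice, and their median log2 difference was -1.28 against -0.01 for all genes tested. For 4 of the 9 genes (Egr1, Egr2, Ier2 and Ier3) the highest Ntsr2 AKO value was under the lowest control value, which held for 8.16% of all genes tested. The opposite separation held for 0 of the 9 genes and for 6.82% of all genes. The same 4 genes had an unadjusted p under 0.05 in limma with a lower level (5.27% of all genes), and none had one with a higher level (3.08% of all genes). Egr1 alone passed an adjusted p of 0.05 in limma, and it was the only such gene of the 16157 tested (0.00619%). DESeq2 on the recovered reads gave an adjusted p under 0.05 with a lower level for Egr1 and Ier3, against 0.964% of all genes. The limma call of Egr1 was lost without a filter, without the trend, with a block for replicate number, in edgeR (adjusted p of Egr1 0.0512), with the muscle covariate and without any single mouse. Since the genes were chosen for this comparison, these counts describe them only. The count of 4 separated genes rose to 7 without control 4 (Nr4a1, Nr4a2 and Ier5 in addition) and to 6 without Ntsr2 AKO 3 (Nr4a3 and Ier5 in addition). Leaving out a mouse can only keep or raise this count.

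The mice also ranked differently. The highest value was found in a control mouse for all 9 genes (control 3 for 3 genes, control 4 for 2 and control 5 for 4), and the lowest in an Ntsr2 AKO mouse (Ntsr2 AKO 4 for 6, Ntsr2 AKO 5 for 2 and Ntsr2 AKO 3 for 1). Both conditions held for 34.1% of all genes tested. The mean z-score of the 9 genes was 0.87, 0.19 and 0.70 in control mice 3, 4 and 5, and -0.26, -0.99 and -0.51 in Ntsr2 AKO mice. In each group mouse 4 was thus the lowest and mouse 3 the highest, as the colour map of the single genes shows, although the numbers mark different animals.

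**Figure D2:**
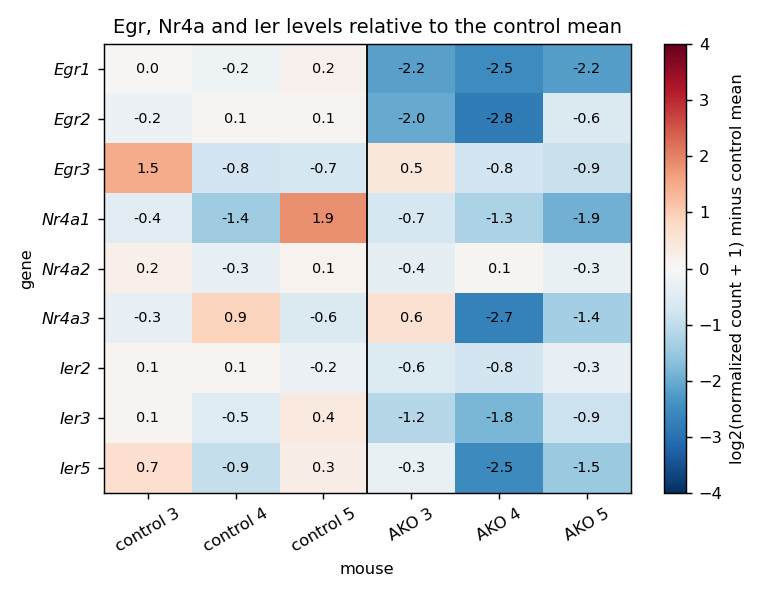
Level of each gene (rows) in each mouse (columns; left of the line, control; right, Ntsr2 AKO), as log2(normalized count + 1) minus the control mean of that gene, printed in each cell and coloured from blue (lower) to red (higher). Egr1, Egr2, Nr4a1, Ier2, Ier3 and Ier5 are below the control mean in all Ntsr2 AKO mice, and the deepest blue is in Ntsr2 AKO 4 (Egr2 and Nr4a3) and the deepest red in control 5 (Nr4a1).

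The spread between mice of the same genotype separated the genes again. The within-group SD of Egr1 was 0.19 and that of Ier2 0.21 on the log2 scale, below the median of 0.30 for all genes tested, and that of Nr4a2 was 0.28. Nr4a1 (1.27), Nr4a3 (1.30) and Ier5 (0.99) were far more variable than genes of like level (mean within 0.5 log2 units), at percentiles 97.7, 98.2 and 98.5 of those genes. Egr2 had an SD of 0.81 and Ier3 of 0.48. The plot of spread against level shows Egr1 and Ier2 inside the bulk of genes and the 3 variable genes above it.

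**Figure D3:**
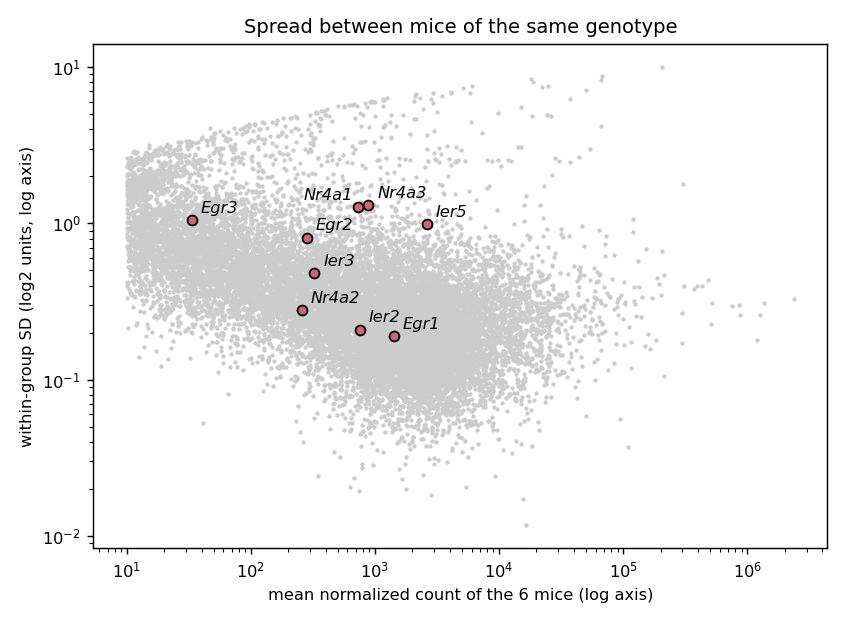
Within-group SD on the log2 scale against the mean normalized count of the 6 mice (both axes logarithmic), for all genes tested (grey) and the Egr, Nr4a and Ier genes (red, labelled). Nr4a1, Nr4a3 and Ier5 lie above the bulk of genes of like level, while Egr1 (0.19) and Ier2 (0.21) lie inside it.

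After the group means were subtracted, Egr1 followed Ier3 (Pearson r = 0.97 over 6 mice) and Ier5 (r = 0.84), whereas Nr4a2 and Nr4a3 moved in opposite directions (r = -0.87). Over the 6 mice without that subtraction r was 0.91 for Egr1 and Ier3 and 0.90 for Egr2 and Ier2. These values describe 6 libraries, which share their size factors and the difference between the groups. Among 12558 other genes (minimum mean of 100 normalized counts), the log2 values most like the mean z-score of the 9 genes over the 6 mice were those of Trip11 (r = 0.995), Palm2 (r = 0.993) and Vkorc1l1 (r = 0.993). With the group means subtracted they were those of Vasn (r = 0.997), Fam98c (r = 0.995) and Syne3 (r = 0.995).

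Levels were compared between genes only per kilobase of exon. In control mice Ier5 had the highest mean (1140 normalized counts per kilobase), followed by Ier2 (586), Egr1 (525), Ier3 (404), Nr4a1 (328), Nr4a3 (182), Egr2 (123), Nr4a2 (67.1) and Egr3 (9.32). The ranges of neighbours overlapped down to Egr2, and only the steps from Egr2 to Nr4a2 and from Nr4a2 to Egr3 did not. In Ntsr2 AKO mice the order of the means was Ier5 (459.6), Ier2 (402), Ier3 (166), Nr4a3 (113), Egr1 (106), Nr4a1 (89.3), Nr4a2 (58.9), Egr2 (43.3) and Egr3 (5.76). The steps without overlap were those from Ier2 to Ier3 and from Egr2 to Egr3. By these levels Egr1 took rank 3 in each control mouse and rank 6, 4 and 4 in Ntsr2 AKO mice 3, 4 and 5.

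The ratio of Egr1 to another gene in the same mouse does not depend on the size factors. Egr1 had 2.53, 2.10 and 3.45 reads per Ier2 read in control mice 3, 4 and 5, and 0.85, 0.78 and 0.71 in Ntsr2 AKO mice. It had 7.84 to 9.46 reads per Nr4a2 read in control mice and 1.39 to 2.51 in Ntsr2 AKO mice, and 4.49 to 6.53 against 2.10 to 3.27 per Ier3 read. These 3 ratios did not overlap between the groups, and the 5 others did (Egr2, Egr3, Nr4a1, Nr4a3 and Ier5). The ratio to Egr2, for example, was 4.51 to 6.84 in control and 1.81 to 6.89 in Ntsr2 AKO mice.

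The promoters were read to show which elements of the signal pathways are present. RefSeq promoters on GRCm38.p6 were matched for 6 of the 9 genes (Egr2, Nr4a1, Nr4a2, Nr4a3, Ier3 and Ier5). The 250 bases before the annotated start are printed for Egr2 and Ier3, which separated the groups, and for Nr4a1 and Nr4a3, which did not, with CArG boxes and CRE half-sites in capitals. The half-site searched was TGACG, read on either strand (CGTCA on the printed strand when the match is on the other), and its full form TGACGTCA would contain it. Each sequence is given 5′ to 3′ on the strand of the gene.
Egr2, chr10:67537619-67537868, plus strand: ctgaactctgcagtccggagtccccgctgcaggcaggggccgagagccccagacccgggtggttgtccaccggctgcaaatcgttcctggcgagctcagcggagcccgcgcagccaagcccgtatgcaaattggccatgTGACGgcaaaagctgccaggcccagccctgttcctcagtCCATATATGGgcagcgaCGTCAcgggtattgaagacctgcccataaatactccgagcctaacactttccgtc
Nr4a1, chr15:101266596-101266845, plus strand: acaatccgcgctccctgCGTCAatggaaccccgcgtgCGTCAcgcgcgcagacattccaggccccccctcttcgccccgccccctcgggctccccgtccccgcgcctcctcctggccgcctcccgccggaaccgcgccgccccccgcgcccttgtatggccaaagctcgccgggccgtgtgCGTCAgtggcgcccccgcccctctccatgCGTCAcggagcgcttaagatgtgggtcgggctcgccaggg
Nr4a3, chr4:48045055-48045304, plus strand: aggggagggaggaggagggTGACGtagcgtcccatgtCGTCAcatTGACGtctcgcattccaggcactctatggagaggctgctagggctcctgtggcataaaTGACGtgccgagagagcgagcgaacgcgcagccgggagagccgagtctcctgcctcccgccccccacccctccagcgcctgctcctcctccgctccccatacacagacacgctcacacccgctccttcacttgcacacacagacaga
Ier3, chr17:35821463-35821712, plus strand: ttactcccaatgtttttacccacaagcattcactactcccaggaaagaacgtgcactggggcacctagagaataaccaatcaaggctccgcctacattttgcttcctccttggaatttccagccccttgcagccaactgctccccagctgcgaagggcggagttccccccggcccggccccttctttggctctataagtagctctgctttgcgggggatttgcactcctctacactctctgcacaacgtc

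The Egr2 window printed and drawn, 1 of 5 annotated starts, held a CArG box 72 to 63 bases before the start with a half-site on each side. The Egr2 windows from 67537620 and 67537680 overlap it and hold the same box and half-sites. The window from 67537316 held another CArG box (CCTTTTTTGG) and no half-site, and that from 67535249 held neither. A CArG box was present in 1.47% of 32851 promoter windows of the same length, a share per window, whereas Egr2 had 5. A half-site occurred in 17.8% of those windows, and Nr4a1, Nr4a2 and Nr4a3 held 4 each. The Nr4a1 window further held GCGGGGGCG, a G-rich form of the EGR site, 60 to 52 bases before the start on the other strand, a motif present in 2.57% of windows. Ier3 and Ier5 held no CArG box and no half-site in these letters. The form GCGTGGGCG (0.536% of windows), the NBRE AAAGGTCA (1.34%) and the full CRE (1.55%) had no match in any of the 10 windows of the 6 genes. A link between these matches and the levels or the spread of the genes was not tested. The map of motif matches shows where each element lies.

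**Figure D4:**
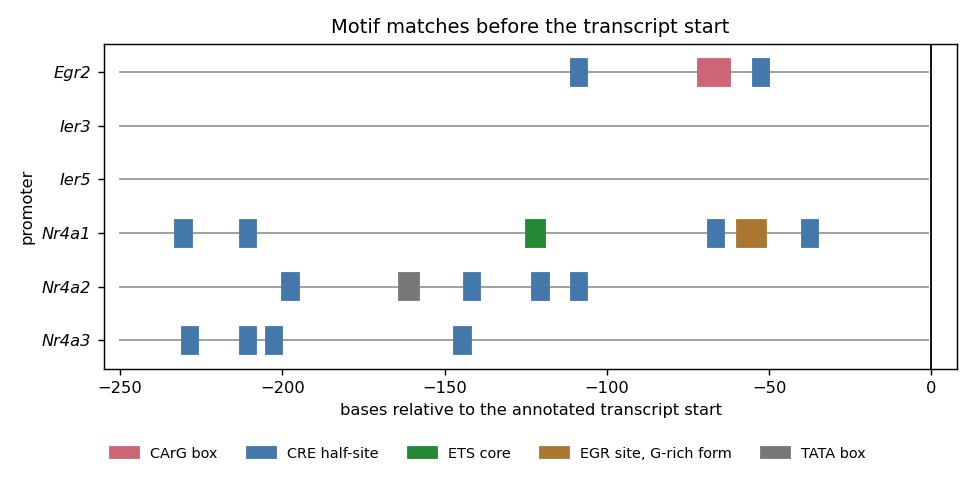
Motif matches (coloured boxes, drawn to scale) in the 250 bases before the annotated transcript start (vertical line) of 6 genes, on either strand, with the horizontal axis in bases relative to the start. The CArG box is found in Egr2 alone of those drawn, 4 CRE half-sites in each Nr4a gene, and no match in Ier3 and Ier5.

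Close relatives and partners of these factors were examined next. Ier5l, a paralog of Ier5, was lower in every Ntsr2 AKO mouse (489.6, 400.3 and 529 against 304, 204 and 306 normalized counts; log2 difference -0.81, SE 0.23, limma unadjusted p = 0.0103, adjusted p = 0.522). Ier3ip1, listed with the relatives but named as an interactor of IER3, was 0.23 (SE 0.19) higher on the log2 scale, which did not pass (limma unadjusted p = 0.258). The other 2 of the 4 genes listed were near 0, as Egr4 had 4.13 in Ntsr2 AKO 3 and 0 elsewhere, and Wt1 had 3.04 in Ntsr2 AKO 5 and 0 elsewhere. Of 5 partners, Nab2, a corepressor that EGR proteins themselves induce, had a log2 difference of -1.20 (SE 0.39, limma unadjusted p = 0.0192, adjusted p = 0.555). Its control values of 1251 to 2551 overlapped the Ntsr2 AKO values of 509 to 1303, and the list's 1 gene at an unadjusted p under 0.05 became 0 without control 3 or without Ntsr2 AKO 4. Nab1 (-0.24, adjusted p = 0.685) and Rxrg, a retinoid receptor that pairs with NR4A proteins (0.60, adjusted p = 0.600 in limma), did not pass.

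Of 17 transcription factors and coactivators of immediate early promoters, 2 had an unadjusted p under 0.05 in limma and a lower level (5.27% of all genes), and 0 a higher one (3.08%), with a median log2 difference of -0.21. They were Mrtfb, listed as Mkl2, an SRF coactivator (-1.15, SE 0.38, adjusted p = 0.557), and Srf itself, the factor that binds CArG boxes (2556, 2046 and 2597 against 1795, 1935 and 1510.0 normalized counts; -0.46, SE 0.15, adjusted p = 0.557). Crtc2, a CREB coactivator, had -0.30 (adjusted p = 0.600). Of 14 kinases of the ERK and cAMP pathways 0 had such a p in limma (0 in edgeR and 1 in DESeq2), and their median was -0.18. Map2k1 (-0.24) and Map2k2 (-0.28), 2 of the 14, were lower in every Ntsr2 AKO mouse, which held for 8.16% of all genes tested. The count of 2 upstream factors at an unadjusted p under 0.05 was 0 without control 5, and that of kinases was 3 without control 4.

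Genes reported as targets of EGR1 gave 5 of 14 with an unadjusted p under 0.05 in limma, all lower (5.27% of all genes), at a median log2 difference of -0.41. Among them, the growth factor gene Pdgfa had 777, 503 and 647 normalized counts in control mice and 429, 449 and 371 in Ntsr2 AKO mice, without overlap (-0.61, SE 0.20, adjusted p = 0.557 in limma). Nab2 had an adjusted p of 0.555 in limma, and the adhesion genes Cd44 (-1.49) and Icam1 (-0.57) also had an unadjusted p under 0.05. The count was 2 without control 3 or without Ntsr2 AKO 4, and 3 without Ntsr2 AKO 5. Of all 14 targets, 11 had a lower and 3 a higher mean. For 3 targets every Ntsr2 AKO mouse was lower (8.16% of all genes), and for 1 every Ntsr2 AKO mouse was higher (6.82%). Pnpla2, the adipose triglyceride lipase gene and a reported target of EGR1, had a log2 difference of -0.23 with overlapping groups. Of 5 reported NR4A targets 0 had an unadjusted p under 0.05 in limma (1 with the muscle covariate, 1 without Ntsr2 AKO 5, and 0 in edgeR and DESeq2), and their smallest was that of Bcl2l11 (-0.43, adjusted p = 0.687), followed by Ucp1 and the glucose transporter gene Slc2a4.

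Of 49 other immediate early genes, 28 had an unadjusted p under 0.05 in limma with a lower level (5.27% of all genes) and 0 with a higher one (3.08%), and none passed the adjusted threshold. In 25 of the 49 every Ntsr2 AKO mouse was lower (8.16% of all genes). Their median log2 difference was -0.60, against -1.28 for the Egr, Nr4a and Ier genes. Fos, a subunit of AP-1, had 546, 527 and 575 normalized counts in control mice and 165, 114 and 159.9 in Ntsr2 AKO mice (-1.92, SE 0.21, adjusted p = 0.160 in limma). Ccn1, listed as Cyr61, a matricellular protein gene (-1.26, SE 0.18, adjusted p = 0.355), and the pseudokinase gene Trib1 (-1.14, SE 0.19, adjusted p = 0.499) followed. DESeq2 gave 11 of the 49 an adjusted p under 0.05, all lower (0.964% of all genes). The list was not of a single pattern, as Id1, Id3 and Klf2 had values of 0.35, 0.38 and 0.29 that did not pass. The plot of log2 differences by list shows 39 of the 49 genes below 0.

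**Figure D5:**
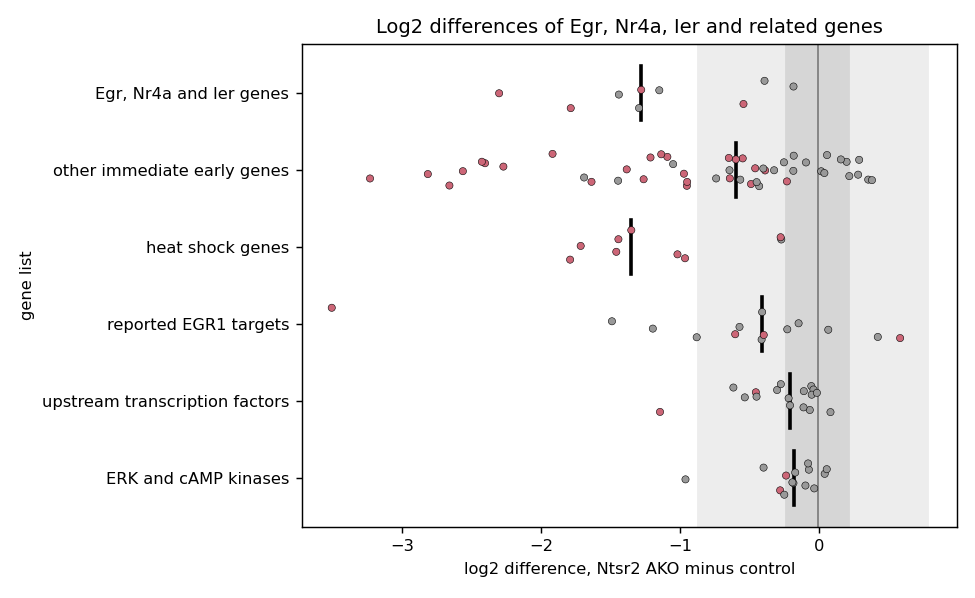
Log2 difference (Ntsr2 AKO minus control) of each gene (points) in 6 gene lists, red where the groups do not overlap and grey where they do, with the median of each list (black bar) and the middle 50% and 90% of all genes tested (dark and light grey bands). The median lies at -1.28 for the Egr, Nr4a and Ier genes, -0.60 for other immediate early genes, -1.35 for heat shock genes and -0.18 for ERK and cAMP kinases.

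A list of 9 cytosolic and mitochondrial heat shock chaperones was measured as a sign of stress. All 9 had a lower mean in Ntsr2 AKO mice, 7 had an unadjusted p under 0.05 in limma (5.27% of all genes lower), 0 passed the adjusted threshold, and 8 were lower in every Ntsr2 AKO mouse (8.16% of all genes), with a median log2 difference of -1.35. Hspb1, a small heat shock protein gene, had 8053, 7428 and 9539 normalized counts in control mice and 2896, 3029 and 3118 in Ntsr2 AKO mice (-1.46, SE 0.13, adjusted p = 0.0643 in limma). Hsph1 (-1.45, SE 0.21) and Hsp90aa1 (-1.02, SE 0.15), chaperones of the cytosol, had adjusted p values of 0.355 and 0.359 in limma. Their summed levels were 209051 to 242249 in control and 104221 to 132882 in Ntsr2 AKO mice. Whether these levels reflect stress or handling was not tested, nor was the part of either in the values of the Egr, Nr4a and Ier genes.

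Signs of RNA quality and cell makeup were set beside these values. Of the 13 mitochondrially encoded genes 0 had an unadjusted p under 0.05 in limma (0 in edgeR and DESeq2, and 1 without control 3), and they took 7.94% to 12.6% of the counts in control and 9.70% to 12.3% in Ntsr2 AKO mice. All 4 neutrophil markers had a lower mean in Ntsr2 AKO mice, with sums of 186 to 479.6 in control and 45.4 to 215 in Ntsr2 AKO mice and Cxcr2 at 0 in Ntsr2 AKO 3 and 4. All 5 T cell markers also had a lower mean, with sums of 259 to 974 against 160 to 341 and none at 0. Among the cell type markers the genes with an unadjusted p under 0.05 in limma were Cxcr2 (-3.26, adjusted p = 0.583) and Cd2 (-0.95, adjusted p = 0.565), both lower (5.27% of all genes), and Cidea (0.77, adjusted p = 0.558), higher (3.08% of all genes). They were 1 of 4 neutrophil, 1 of 5 T cell and 1 of 3 brown adipocyte markers, and no other cell type list held such a gene. The sums of macrophage markers (15003 to 35991 against 15745 to 28984) and of blood endothelial markers (17065 to 26886 against 16367 to 23317) overlapped. The part of these cells in the values of the Egr, Nr4a and Ier genes was not tested. Without control 5, the mouse with most muscle transcripts, the log2 differences of Egr1, Egr2, Ier2 and Ier3 were -2.22, -1.73, -0.66 and -1.08. The groups did not overlap for these genes with all 6 mice, so leaving out a mouse cannot make them overlap.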

How the data were processed

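RNA from WATs of 3 control and 3 Ntsr2 AKO mice had been sequenced with a kit that does not mark the strand, so antisense reads cannot be told apart. The authors trimmed reads with Trimmomatic, aligned them with HISAT2 (build mm10 per the labels) and quantified them with StringTie. They deposited a signal table of normalized counts, which are read counts divided by a size factor for each mouse. Whole reads were recovered (100% of values, tolerance 0.01), and totals are in the report. StringTie derives counts from coverage, so totals are approximate. The labels do not say that samples are separate animals beyond their numbers, and each sample was taken as a mouse. The p values weigh each difference against the spread between these samples.

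The main test was limma 3.58.1 (eBayes with trend, R 4.3.3) on log2(normalized count + 1) for 16157 genes with a mean of at least 10, with Benjamini-Hochberg adjustment over all of them and a threshold of 0.05. edgeR 4.0.16 and DESeq2 1.42.0 on recovered reads were alternatives, with those in the closing section. The fits were tested on simulated data.

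The 9 genes and all lists were chosen with earlier results of these data known. The genes named are the 9, Ntsr2, the 3 genes of smallest p in each pathway list (2 such genes are not reported here), marker genes and the 3 most alike. Other list genes (Cd44, Icam1, Pnpla2, Id1, Id3, Klf2, Cxcr2, Cd2, Cidea) were named after their values were seen. Positions are from GENCODE M21 (GRCm38).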

Additional observations from a re-analysis of the deposited data

How the results depend on the processing

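Under 16 alternatives, 239 values on the 9 genes and on counts of genes were recomputed, of which 225 stayed within 1 within-group SD (a log2 difference) or 1.5 times (a count) and 14 moved. The filter, the trend and the replicate block cannot change the log2 difference of a gene that is kept. Those values among the 225 were fixed in advance. The limit is wide for variable genes. Egr3 (-0.39 to 0.35 without control 3) and Nr4a1 (-1.30 to -0.36 without control 5) stayed within it. Of 144 counts for single pathway lists, 21 moved by over 1.5 times. Genes past an adjusted p of 0.05 (1 in limma) numbered 0 without a filter, without the trend, with the replicate block, in edgeR (1323 at an unadjusted p under 0.05), with a skeletal muscle covariate added after the data were seen, and without any single mouse (0 to 0). DESeq2 gave 219 (153 lower, 66 higher). Genes at an unadjusted p under 0.05 (1349, of which 852 lower and 497 higher) numbered 646 to 1690 when a mouse was left out, with 646 without Ntsr2 AKO 4. After quantile normalization 612 were lower and 633 higher. Leaving out a mouse can only keep or raise the number of Egr, Nr4a and Ier genes lower in every Ntsr2 AKO mouse. That number was 4 to 7 when a mouse was left out, with 7 without control 4, and was 3 after quantile normalization.

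The log2 difference of 8 of the 9 genes was below 0 under every alternative run, from -2.41 to -2.20 for Egr1, -2.40 to -1.29 for Egr2, -1.54 to -1.01 for Ier3 and -0.66 to -0.44 for Ier2. Egr3 changed sign, to 0.35 without control 3, and had no value with a minimum mean of 50. The cause was not tested. Deviations from the group means in same-numbered mice had correlations of 0.45, -0.24 and 0.41 for replicates 3, 4 and 5. Those in differently numbered mice ran from -0.52 to 0.26. The samples were not treated as pairs in the main test, and whether the shared numbers mark pairs was not settled. The replicate block left 1303 genes at an unadjusted p under 0.05 (866 lower, 437 higher). With 3 mice per group, the spread between mice limits the precision of these differences.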
